A study of Mus musculus with 10 samples.

Results

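The 10 genes described here encode the enzymes that write, maintain and remove CpG methylation in mouse DNA, together with a cofactor and a transcriptional regulator of the writers. The rule names them by function and uses no measured value, but it was set with earlier results of these data known: Dnmt3a, Dnmt3b, Dnmt3l, Dnmt1, Uhrf1, Tet1, Tet2, Tet3, Tdg and Prdm14. The deposited files listed 31053 genes. A filter on low counts left 11215 of them, and it kept all 10 members. RNA was measured. DNA methylation and protein were not measured here.

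All libraries came from E14 mouse embryonic stem (ES) cells stably carrying an Esrrb construct that doxycycline (DOX) induces, so the controls hold the construct too. Esrrb encodes an orphan nuclear receptor that helps to sustain naive pluripotency. The first group was grown on gelatin in N2B27 medium with 2iL and without DOX (n = 4 libraries); 2iL stands for CHIR99021 at 3 µM, which inhibits GSK3, for PD0325901 at 1 µM, which inhibits MEK, and for LIF. For the other groups 2iL was withdrawn the day after plating and the cells were collected 96 h later in N2B27 without DOX (n = 3) or with DOX (n = 3). Libraries carry the names of their titles: exp1_1 and exp1_2 belong to experiment 1, and exp2_1 and exp2_2 to experiment 2. Separate cultures are not stated. The p-values therefore measure only the spread between these samples, which may be technical. No group with DOX in 2iL, and none with DOX but without the construct, was analysed here, so an effect of DOX itself and one of the induced gene cannot be told apart.

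In mammals DNMT3A and DNMT3B place new methyl groups on CpG sites, and DNMT3L, which has no catalytic activity of its own, binds and stimulates them. DNMT1, guided by UHRF1 to hemimethylated DNA, copies the pattern after replication. The TET dioxygenases oxidise 5-methylcytosine, and the glycosylase TDG cuts out the later oxidation products for base excision repair. ES cells in 2iL are known for a hypomethylated genome, for which repression of de novo methyltransferase genes by PRDM14 is one described route, and the genome is remethylated as cells leave the naive state.

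The libraries held 1253620 to 4715450 reads in genes, with a median of 3334324.5, and 12659 to 14723 detected genes. The sparsest was 96 h DOX exp1_2. The other 9 held at least 2769071 reads. That library stood apart in composition as well. Mitochondrially encoded genes took 3.10% of its reads (0.559% to 1.27% elsewhere), and Gm42418, which collects ribosomal RNA reads, took 14.8% (3.39% to 6.61%). Fibroblast markers summed to 2098 CPM (counts scaled to each library's total of reads in genes), with reads for 7 of 7 markers, against 1.82 to 22.9 CPM elsewhere. Several DOX results are therefore also given without this library, and others may change without it too. Sums over markers are on this scale, whereas levels of single genes are CPM after TMM normalisation, which also evens out differences in composition. Esrrb, the gene the construct carries, ranged from 228 to 377 CPM in 2iL. After 96 h its range was 13.5 to 31.9 CPM without DOX and 12.8 to 26.9 CPM with DOX. These ranges overlapped, so its reads do not separate the 96 h groups. Reads from 3′ ends count the construct only where it carries the 3′ end of the annotated gene. The ES marker Pou5f1 and 9 other naive or general pluripotency genes had reads in every library of 2iL, with a summed level of 2513 to 2753 CPM. At 96 h it lay between 708 and 835 CPM if DOX was absent and between 1489 and 1900 CPM if DOX was present. Unlike the sum, Utf1 was higher at 96 h, with 123, 402 and 596 CPM in 2iL, without DOX and with DOX. It made up much of the sum without DOX. With DOX against no DOX 5 of the 10 genes were higher at an adjusted p below 0.05 by edgeR, beside 2.16% of all genes. The other 5 were Pou5f1, Sox2, Nanog, Esrrb and Utf1.

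Promoter sequences are shown for 4 members, picked after their values were seen: Dnmt3a and Dnmt3b, which rose together on 2iL removal and moved apart with DOX, and Tet1 and Tet2, which rose with DOX. Each is the 250 bases before a transcript start in RefSeq (GRCm38.p6, the mm10 build that the deposited counts also use), written 5′ to 3′ on the strand of the gene, with CpG dinucleotides in capitals. Dnmt3a has a distal start, from which the long isoform comes, and an internal one, from which the short isoform comes that predominates in ES cells.
Dnmt3a, distal start, chr12:3806910-3807159, plus strand: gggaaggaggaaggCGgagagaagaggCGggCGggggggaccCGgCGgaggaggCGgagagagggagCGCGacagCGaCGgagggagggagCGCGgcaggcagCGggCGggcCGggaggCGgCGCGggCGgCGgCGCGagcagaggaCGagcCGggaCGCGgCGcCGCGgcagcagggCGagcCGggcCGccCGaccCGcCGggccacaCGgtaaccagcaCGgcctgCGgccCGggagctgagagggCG
Dnmt3a, internal start, chr12:3891494-3891743, plus strand: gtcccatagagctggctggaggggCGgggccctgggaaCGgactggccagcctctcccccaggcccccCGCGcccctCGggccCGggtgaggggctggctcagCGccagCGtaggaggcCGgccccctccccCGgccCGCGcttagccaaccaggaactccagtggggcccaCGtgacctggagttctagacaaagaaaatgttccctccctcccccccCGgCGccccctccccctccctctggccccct
Dnmt3b, chr2:153649199-153649448, plus strand: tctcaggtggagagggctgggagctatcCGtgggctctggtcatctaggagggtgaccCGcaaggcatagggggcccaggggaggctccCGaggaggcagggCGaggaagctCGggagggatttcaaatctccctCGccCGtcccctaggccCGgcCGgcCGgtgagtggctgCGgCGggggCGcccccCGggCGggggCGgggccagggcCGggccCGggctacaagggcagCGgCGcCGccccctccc
Tet1, chr10:62887325-62887574, minus strand: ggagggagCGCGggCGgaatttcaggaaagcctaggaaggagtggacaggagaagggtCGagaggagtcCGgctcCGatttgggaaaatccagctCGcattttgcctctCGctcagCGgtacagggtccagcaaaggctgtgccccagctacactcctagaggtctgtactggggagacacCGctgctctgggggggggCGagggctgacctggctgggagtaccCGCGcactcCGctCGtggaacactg
Tet2, chr3:133544391-133544640, minus strand: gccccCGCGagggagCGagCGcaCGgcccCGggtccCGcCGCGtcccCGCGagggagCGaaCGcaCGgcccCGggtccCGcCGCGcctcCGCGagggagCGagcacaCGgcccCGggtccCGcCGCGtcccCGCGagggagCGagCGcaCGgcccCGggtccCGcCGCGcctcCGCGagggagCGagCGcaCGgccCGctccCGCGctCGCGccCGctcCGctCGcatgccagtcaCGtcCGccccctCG

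These promoters differ widely in CpG content. The Tet2 window held 51 CpG and the distal Dnmt3a window 40. The Dnmt3b window held 21, and the internal Dnmt3a and the Tet1 windows 15 each. The median over all 32851 promoter windows of this length was 6. RefSeq promoters were found for 9 of the 10 members, as 16 windows. The lowest counts among them belonged to Dnmt1 (2 in 1 of its 3 windows) and Dnmt3l (3 to 5 in its 3 windows). Dnmt3l was the one gene of the 9 with no window above that median. Both strands were searched for the Esrrb element AAGGTCA, which 4.08% of all windows held and 0 of the 16 member windows. The Klf element GGGNGTGG was in 15.9% of all windows and in 4 of 16 (Dnmt3l and Uhrf1). The GC box GGCGGG was in 32.5% of all windows and in 10 of 16, among them both Dnmt3a windows shown, the Dnmt3b and the Tet2 window, but not the Tet1 window. CCAAT was in 33.8% of all windows and in 6 of 16 (windows of Dnmt1, Uhrf1, Tet3 and Tdg). A match describes the letters in the window only.

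Removal of 2iL for 96 h without DOX raised the RNA of the de novo writers Dnmt3a and Dnmt3b, of their cofactor gene Dnmt3l and of Tet3. It lowered Uhrf1, Tet2 and Prdm14. Of the 10 members, 4 were called up, 3 down and 3 not called by edgeR's quasi-likelihood test (adjusted p below 0.05 after Benjamini-Hochberg adjustment over all genes tested). Among all genes 20.4% were called, 11.5% up and 8.9% down. The library values of the 2 groups did not overlap for 9 of 10 members, against 30.9% of all genes. These 9 include Prdm14, Tdg and Tet2, which passed the filter on low counts only through libraries where they were high. The members' median log2 fold change was 0.35, beside 0.004 for all genes tested.

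**Figure D1:**
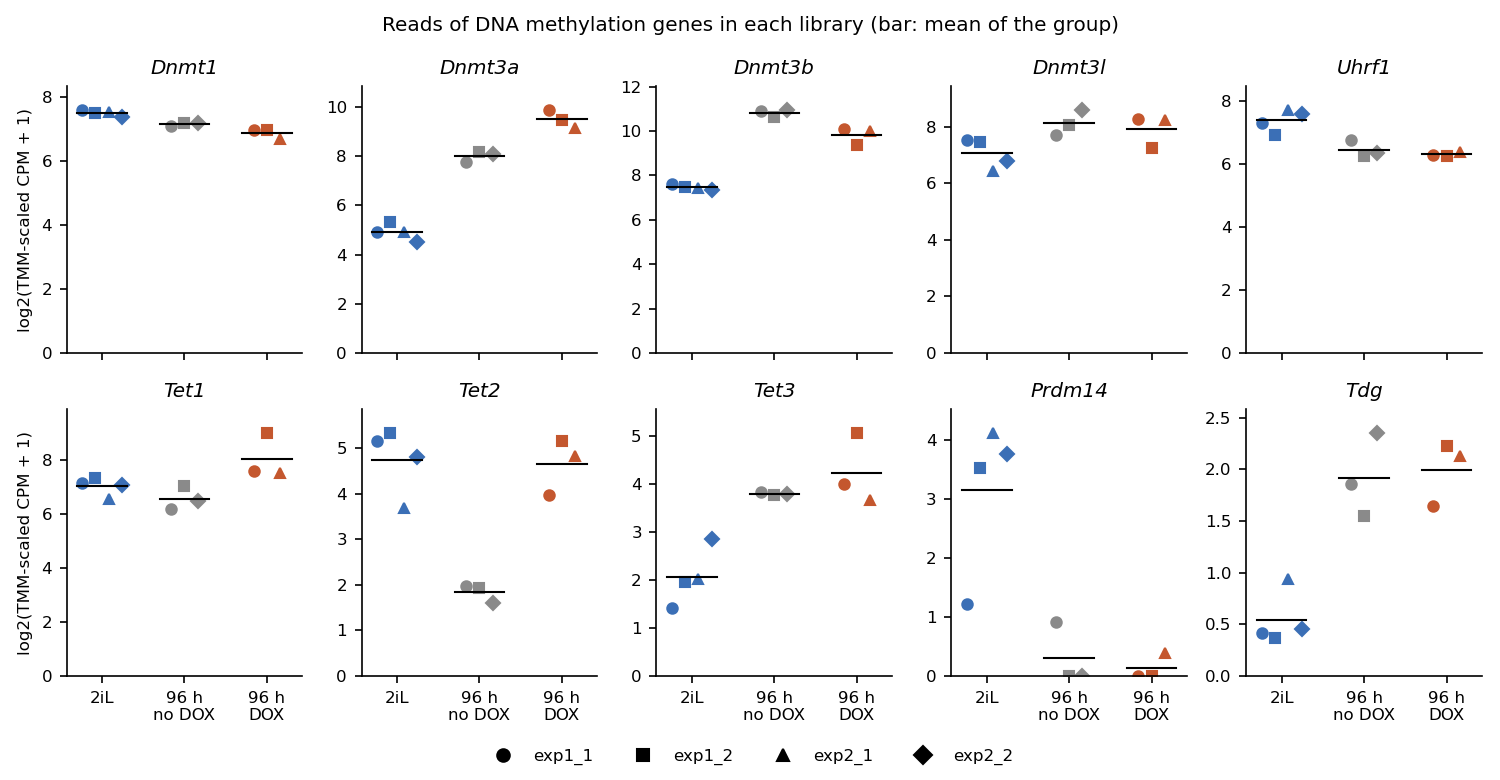
Level of each of the 10 genes in each of the 10 libraries, as log2(TMM-scaled CPM + 1) on the vertical axis; colours mark the groups, symbols the library names, and the bar is the mean of the group. Dnmt3a climbs from 2iL to 96 h without DOX and again to 96 h with DOX, Dnmt3b is highest without DOX, and Tet2 is low in the 3 libraries at 96 h without DOX.

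Dnmt3a (ENSMUSG00000020661, mm10 chromosome 12, 3806007 to 3914443, plus strand; gene spans here are those of GENCODE vM21) encodes a de novo methyltransferase. In 2iL it had 29.2, 39.3, 29.4 and 22.1 CPM (exp1_1, exp1_2, exp2_1, exp2_2). At 96 h without DOX it had 216, 286 and 276 CPM (exp1_1, exp1_2, exp2_2), and with DOX 935, 713 and 567 CPM (exp1_1, exp1_2, exp2_1). The 3 groups did not overlap: every library with DOX lay above every library without, and these above every 2iL library. Removal of 2iL raised it 8.61-fold (log2 fold change 3.11 ± 0.25 SE, adjusted p = 2.47e-08), and within experiments 1 and 2 the log2 change was 2.87 and 3.42. DOX raised it a further 2.85-fold over 96 h without DOX (1.51 ± 0.26, adjusted p = 0.00155), with 1.72 and 1.04 within the experiments. DOX libraries thus stood 24.5-fold above 2iL (4.62 ± 0.26, adjusted p = 4.63e-10). Reads from the 3′ end do not tell the long from the short isoform, whose promoters are shown above. A pseudogene, Dnmt3a-ps1, is annotated elsewhere, and reads that align to both copies would have been left out. Bulk levels also do not tell more expressing cells from more RNA per cell, here or for any gene below.

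Dnmt3b (ENSMUSG00000027478, chromosome 2, 153649450 to 153687730, plus strand), the other de novo enzyme, had 195, 177, 171 and 159 CPM in 2iL. It reached 1921, 1591 and 1963 CPM at 96 h without DOX. With DOX it had 1091, 668 and 1018 CPM. Again no groups overlapped, but here the libraries with DOX lay between the other groups, and the lowest of them was exp1_2. The rise on 2iL removal was 10.4-fold (log2 fold change 3.38 ± 0.24, adjusted p = 6.35e-09). DOX libraries were 1.97-fold below those without DOX (-0.98 ± 0.25, adjusted p = 0.0304), with -0.996 and -0.947 within experiments 1 and 2. This lower level was called at a narrow margin: the adjusted p exceeded 0.05 in 6 of 10 fits that left out 1 library, up to 0.127 without 96 h no DOX exp1_1. Here and below, the 10 fits include those without a library of the third group, which enters only the shared spread, filter and scaling. The adjusted p was 0.396 within experiment 1 alone and 0.148 with only these 2 groups in the fit. Without 96 h DOX exp1_2 the change was -0.79 (adjusted p = 0.0350). Against 2iL the DOX libraries were still 5.28-fold higher (2.40 ± 0.23, adjusted p = 4.98e-07).

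Dnmt3l (ENSMUSG00000000730, chromosome 10, 78041947 to 78063622, plus strand), the cofactor, was less even among replicates. It too has an annotated pseudogene, Dnmt3l-ps1. In 2iL it had 184 and 176 CPM in experiment 1 and 86.3 and 110.45 CPM in experiment 2. At 96 h without DOX it had 209, 268 and 384 CPM, and with DOX 313, 151 and 299.6 CPM. The libraries without DOX all lay above 2iL, whereas the DOX library exp1_2 fell within the 2iL range. The rise on 2iL removal was 2.06-fold (log2 fold change 1.04 ± 0.29, adjusted p = 0.0142). It was 0.41 within experiment 1 and 1.97 within experiment 2. The difference between the experiments was 1.56 ± 0.52 log2 units (unadjusted p = 0.00809, adjusted p = 0.523 over all genes), so it did not pass. Within experiment 1 alone the rise was not called (adjusted p = 0.615), and it was lost without 2iL exp2_1 (adjusted p = 0.0578) or without 96 h no DOX exp2_2 (adjusted p = 0.111). DOX against no DOX gave -0.17 (95% interval -0.82 to 0.49, adjusted p = 0.859), and its sign turned without exp1_2 of the DOX group (0.09) and without exp2_2 of the no DOX group (0.10). Against 2iL the DOX libraries were 1.84-fold higher (0.88 ± 0.30, adjusted p = 0.0463), a call lost in 5 of 10 fits with 1 library left out (up to 0.144) and in 4 of 10 other settings, among them experiment as a block (adjusted p = 0.0542) and limma (0.0539). It was 1.13 without 96 h DOX exp1_2 (adjusted p = 0.00527).

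The balance of the 2 de novo genes shifted with DOX. Dnmt3a took 13.0%, 18.2%, 14.6% and 12.2% of the summed Dnmt3a and Dnmt3b reads in 2iL. It took 10.1%, 15.3% and 12.3% at 96 h without DOX. With DOX it took 46.2%, 51.6% and 35.8%. The shares in 2iL and without DOX overlapped although the sum had gone from 205 ± 18.7 to 2084 ± 186 CPM (SD). Every DOX library lay above both, at a sum of 1664 ± 330 CPM. The log2 ratio of Dnmt3a to Dnmt3b was -2.55 ± 0.30 in 2iL (SD, n = 4), -2.82 ± 0.34 without DOX (n = 3) and -0.32 ± 0.48 with DOX (n = 3). The difference between DOX and no DOX was 2.49, and the two-sided exact permutation test gave p = 0.1, the smallest that 3 against 3 libraries allow (0.15 adjusted over 3 comparisons). For DOX against 2iL it was 2.23, at the smallest p of that design (exact permutation p = 0.0571, adjusted 0.15). For 2iL removal it was -0.26 (exact permutation p = 0.343, adjusted 0.343). The ratio is taken within each library and does not depend on library scaling, and its DOX difference stayed between 2.29 and 2.75 when any 1 library was left out. The shares are shares of 3′ reads, not of transcripts per length, and whether read recovery of the 2 genes was the same in every group was not tested.

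**Figure D2:**
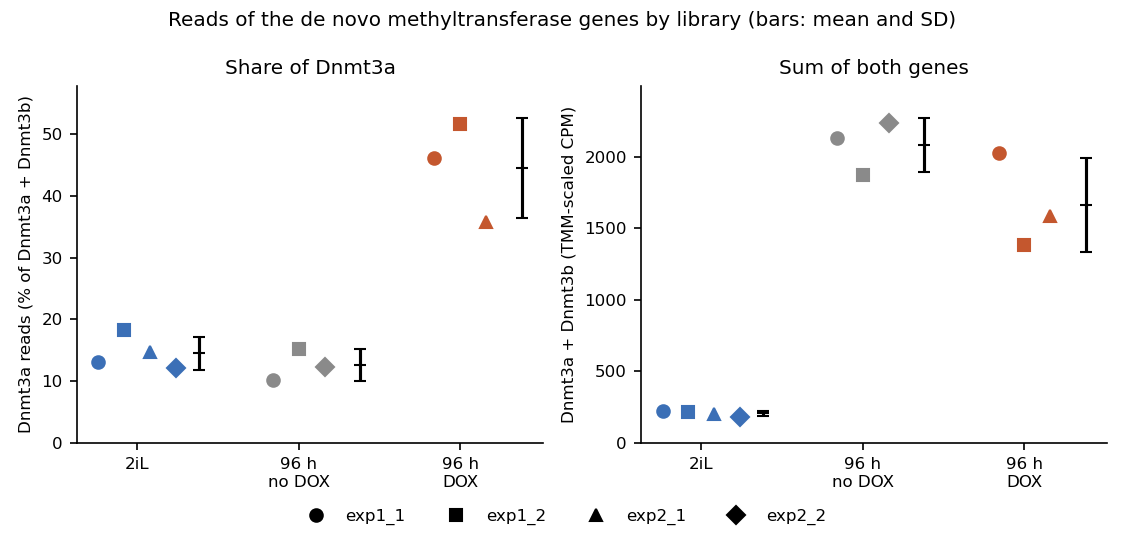
Left, Dnmt3a as a percentage of the reads of Dnmt3a and Dnmt3b together in each library; right, the sum of both genes in TMM-scaled CPM; symbols are libraries, and the black bar gives the mean and SD of each group. The share lies between 10.1% and 18.2% in the 7 libraries without DOX and between 35.8% and 51.6% in the 3 with DOX, while the sum separates 2iL from both 96 h groups.

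Dnmt1 (ENSMUSG00000004099, chromosome 9, 20907209 to 20959888, minus strand), the maintenance enzyme, changed little. It had 191, 181, 182 and 163 CPM in 2iL, 135, 145 and 145 CPM at 96 h without DOX, and 125, 124 and 103 CPM with DOX. The groups stepped down without overlap. Neither step passed the test across all genes: 2iL removal gave a log2 fold change of -0.34 (95% interval -0.75 to 0.07, adjusted p = 0.261) and DOX -0.28 (-0.71 to 0.16, adjusted p = 0.587). DOX against 2iL, which spans both steps, was called at -0.62 ± 0.20 (adjusted p = 0.0381), a call that was lost in 7 of 10 fits with 1 library left out (adjusted p 0.0302 to 0.135) and in 5 of 10 other settings, among them library totals as the only scaling (-0.47, adjusted p = 0.107), a filter of 1 read (0.0806) and a fit to these 2 groups (0.0626).

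Uhrf1 (ENSMUSG00000001228, chromosome 17, 56303321 to 56323486, plus strand), which brings DNMT1 to newly replicated DNA, fell. It had 156, 121, 207 and 193 CPM in 2iL and 107, 74.5 and 81.0 CPM at 96 h without DOX. With DOX it had 76.9, 75.6 and 82.6 CPM. All 96 h libraries lay below all 2iL libraries, and the 96 h groups overlapped. The fall on 2iL removal was 1.93-fold (log2 fold change -0.95 ± 0.23, adjusted p = 0.00544), with -0.61 and -1.30 within experiments 1 and 2. It was not called within experiment 1 alone (adjusted p = 0.322). DOX against no DOX gave -0.16 (95% interval -0.67 to 0.36, adjusted p = 0.824), and DOX against 2iL -1.11 ± 0.24 (adjusted p = 0.00251, or 0.144 in experiment 1 alone). Uhrf1 and Dnmt1 are expressed most in dividing cells. The summed level of 17 S phase genes was 4244 to 4531 CPM in 2iL, 3807 to 3913 CPM without DOX and 2594 to 3179 CPM with DOX. By edgeR 0 of the 17 were called on 2iL removal, beside 20.4% of all genes (2 at an unadjusted p below 0.05, 1 by DESeq2, 0 by limma, and 2 down by edgeR without 96 h DOX exp1_2). With DOX against no DOX 0 were called as well, beside 3.1% of all genes (6 at an unadjusted p below 0.05, 1 by DESeq2 and 1 by limma). Against 2iL 5 were called down with DOX, beside 6.83% of all genes, with Ung (-1.53), Mcm6 (-1.33) and Cdt1 (-1.08) changed most. Without 96 h DOX exp1_2, 6 were called down. The part of these genes' level in the Dnmt1 and Uhrf1 values was not tested.

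Tet2 (ENSMUSG00000040943, chromosome 3, 133463679 to 133545139, minus strand) moved in the opposite direction to Dnmt3b on 2iL removal and with DOX against no DOX. The dioxygenase gene had 34.5, 39.0, 11.9 and 26.9 CPM in 2iL. It had 2.92, 2.79 and 2.05 CPM at 96 h without DOX (10, 13 and 7 reads). With DOX it had 14.7, 34.5 and 27.5 CPM. The libraries without DOX lay below all others, and DOX and 2iL libraries overlapped. Tet2 reached the level of the filter on low counts in 4 libraries of 2iL, 0 without DOX and 3 with DOX. The gene was thus kept only through the groups where it was high. The fall on 2iL removal was 10.7-fold (log2 fold change -3.42 ± 0.47, adjusted p = 1.96e-05), with -3.67 and -3.21 within experiments 1 and 2. DOX against no DOX was 9.53-fold higher (3.25 ± 0.49, adjusted p = 0.000511), with 3.03 and 3.72 within the experiments. From reads alone the same ratio was 9.10, with an exact 95% counting interval of 6.18 to 13.8, which covers counting error only. Against 2iL the DOX libraries differed by -0.16 (95% interval -0.98 to 0.65, adjusted p = 0.8289), an interval that leaves room for a difference of nearly a log2 unit in the downward direction.

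Tet1 (ENSMUSG00000047146, chromosome 10, 62804570 to 62908996, minus strand), which encodes the first-described TET dioxygenase, had 139, 160.2, 92.7 and 133 CPM in 2iL. At 96 h without DOX it had 70.5, 131 and 86.9 CPM, and with DOX 190.3, 502 and 179 CPM. The 2iL and no DOX groups overlapped and the DOX libraries lay above both. Library exp1_2 stood far above the other DOX libraries. On 2iL removal the log2 fold change was -0.45 (95% interval -1.11 to 0.22, adjusted p = 0.387). DOX raised it 3.00-fold (1.58 ± 0.35, adjusted p = 0.0120), but without 96 h DOX exp1_2 the change was 0.94 and no longer passed (adjusted p = 0.0593). Experiment 2, which does not hold that library, gave 1.04 and experiment 1 gave 1.77. The call was also lost without 96 h no DOX exp1_1 (1.40, adjusted p = 0.0949) and without 96 h no DOX exp2_2 (1.51, adjusted p = 0.0759), and in experiment 1 alone (0.0786) or with only these 2 groups in the fit (0.0505). Against 2iL the rise of 1.14 ± 0.31 (adjusted p = 0.0157) became 0.49 (adjusted p = 0.211) without exp1_2 and was not called in experiment 1 alone (0.11).

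Tet3 (ENSMUSG00000034832, chromosome 6, 83362373 to 83459084, minus strand) was the TET gene that rose on 2iL removal. It had 1.66, 2.91, 3.06 and 6.26 CPM in 2iL, from 5 to 17 reads per library. Without DOX it had 13.2, 12.7 and 12.9 CPM, and with DOX 14.9, 32.3 and 11.6 CPM. Both 96 h groups lay above 2iL and overlapped each other. The rise was 3.73-fold (log2 fold change 1.90 ± 0.48, adjusted p = 0.00658). Within experiments 1 and 2 it was 2.47 and 1.48. DOX against no DOX gave 0.56 (95% interval -0.44 to 1.56, adjusted p = 0.636), and 0.04 without exp1_2. DOX against 2iL was 2.46 ± 0.48 (adjusted p = 0.00124), or 1.94 without exp1_2 (adjusted p = 0.0111).

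Tdg (ENSMUSG00000034674, chromosome 10, 82629828 to 82650799, plus strand) gave few reads: 1, 1, 3 and 1 in 2iL, 9, 9 and 14 at 96 h without DOX and 9, 5 and 11 with DOX. Every 96 h library held more than every 2iL library. Tdg passed the filter on low counts only through 1 library without DOX and 2 with DOX. Its separation from 2iL therefore follows in part from the filter. Summed over the groups and scaled to their size, the ratio was 5.98 on 2iL removal (exact 95% counting interval 2.47 to 17.5) and 6.41 for DOX against 2iL (2.57 to 19.1). Both differences lay close to the threshold. By edgeR neither was called (adjusted p = 0.0540 and 0.0607). DESeq2 called both (0.0352 and 0.0371), experiment as a block called the first (0.0492), and limma (0.0453) and library totals as the only scaling (0.0485) called the second. DOX against no DOX gave a ratio of 1.07 (0.609 to 1.87). A pseudogene, Tdg-ps, is annotated elsewhere, and Glt8d2, on the opposite strand, overlaps Tdg within its last 3000 bases. The strand setting of the counting is not given. Whether reads in the overlap went to Tdg, to Glt8d2 or to neither is therefore unknown, and the low counts of Tdg are uncertain.

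Prdm14 (ENSMUSG00000042414, chromosome 1, 13113457 to 13127163, minus strand), the repressor of de novo methyltransferase genes, was nearly lost. It had 4, 36, 53 and 34 reads in 2iL (1.33, 10.5, 16.2 and 12.5 CPM). It had 3, 0 and 0 reads at 96 h without DOX and 0, 0 and 1 with DOX. Library exp1_1 of the 2iL group held few reads, yet still more than any library at 96 h. By reads the gene was 37.8-fold lower after 2iL removal (exact 95% counting interval 12.6 to 186) and 82.5-fold lower with DOX than in 2iL (14.6 to 3286). By edgeR both falls were called (adjusted p = 0.00204 and 0.00228). Prdm14 passed the filter on low counts only through 3 of its 4 libraries in 2iL, the group where it was high. Its place among the members called down therefore follows in part from the filter, and it could not be fitted without 2iL exp1_2, exp2_1 or exp2_2, or in experiment 1 alone. With 3 reads and 1 read in the 96 h groups no fold is given for DOX. Its return with DOX was not detectable at this depth.

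With DOX at 96 h 3 members were called up (Dnmt3a, Tet1 and Tet2), 1 down (Dnmt3b) and 6 not called, while 3.1% of all genes were called, 2.16% up and 0.945% down. The groups did not overlap for 5 of 10 members, against 18.7% of all genes. Tet2, which reached the level of the filter in 0 libraries without DOX, is among them. The members' median log2 fold change was -0.05, beside -0.02 for all genes. Without 96 h DOX exp1_2, 3 members were called. Against 2iL, 5 were called up with DOX (Dnmt3a, Dnmt3b, Dnmt3l, Tet1 and Tet3), 3 down (Dnmt1, Uhrf1 and Prdm14) and 2 not, with 16.7% of all genes called, 9.84% up and 6.83% down. The groups did not overlap for 8 of 10, Prdm14 and Tdg again among them, against 27.6% of all genes, and the medians were 1.01 and 0.02. With library totals as the only scaling 70.6% of the genes called were up, in place of 59%, and the median of all genes was 0.16. The 3 comparisons share libraries, so their values stand side by side and are not independent. At 96 h the primitive endoderm markers, which rise when ES cells take that extraembryonic fate, also separated the groups: their sum was 299 to 542 CPM with DOX and 21.5 to 31.8 CPM without, with reads for 9 of 9 markers in each DOX library and for 4 to 8 without. In 2iL it was 18.2 to 27.4 CPM. Formative epiblast markers summed to 448 to 758 CPM with DOX, 852 to 1006 CPM without and 69.3 to 73.3 CPM in 2iL. Of these 7 genes edgeR called 1 with DOX against no DOX, beside 3.1% of all genes. This was Sox3, which was lower (-2.85, adjusted p = 4.76e-05), at 38.6 CPM with DOX and 287 CPM without. Otx2 (-0.09, adjusted p = 0.926) and Lef1 (0.18, adjusted p = 0.915) were not called. Fgf5, Pou3f1, Sall2 and Zic2 were lower but not called. Neural markers summed to 156 to 599 CPM with DOX, 626 to 1264 CPM without and 185 to 707 CPM in 2iL, a range that overlapped both. Most of that sum was the neuronal tubulin gene Tubb3 (362 ± 228 CPM with DOX and 796 ± 347 without, adjusted p = 0.426). With DOX against no DOX the progenitor marker Nes was lower (-1.60, adjusted p = 0.00840), while Sox1 (0.24, adjusted p = 0.902) and Pax6 (0.01, adjusted p = 0.994) were not called. The part of such cells in the changes of the methylation genes was not tested.

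**Figure D3:**
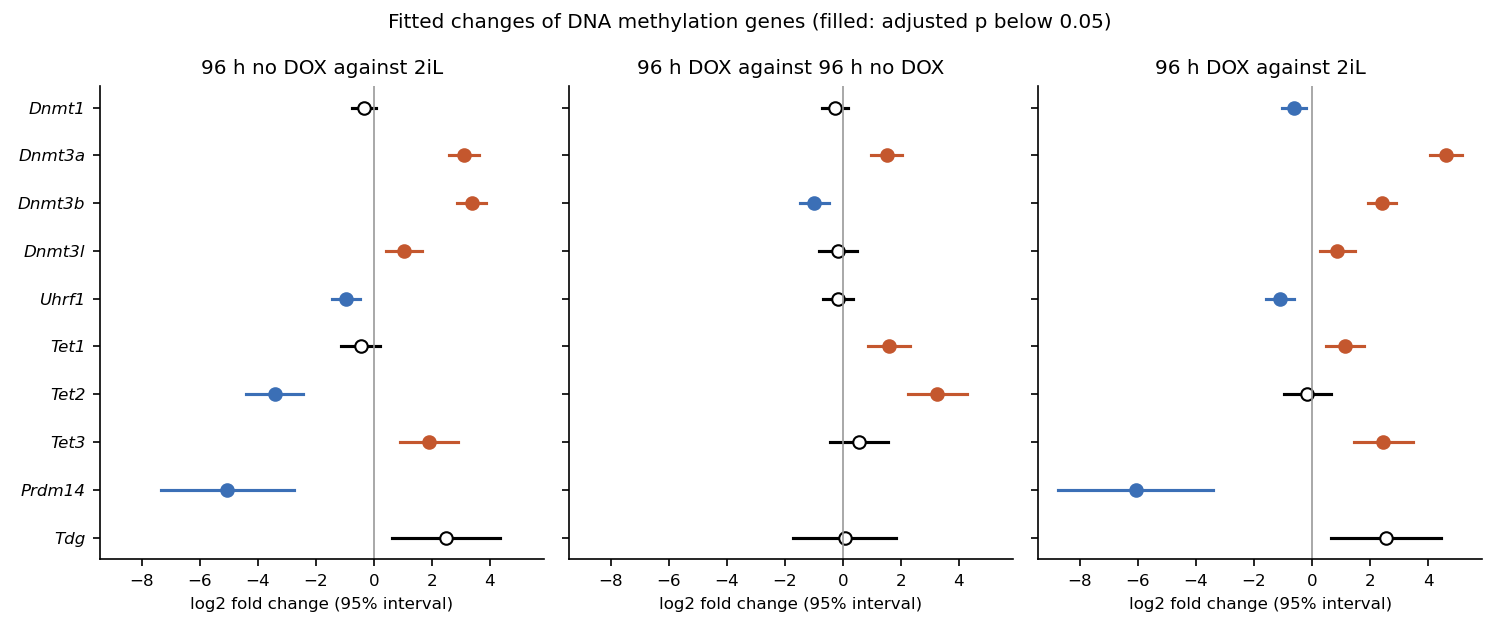
Fitted log2 fold change of each gene with its 95% interval in the 3 comparisons; filled symbols were called (orange up, blue down). Dnmt3a and Dnmt3b lie together near 3 in the left panel and on opposite sides of 0 in the middle panel, where Prdm14 is left out because both groups held at most 3 reads.

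**Figure D4:**
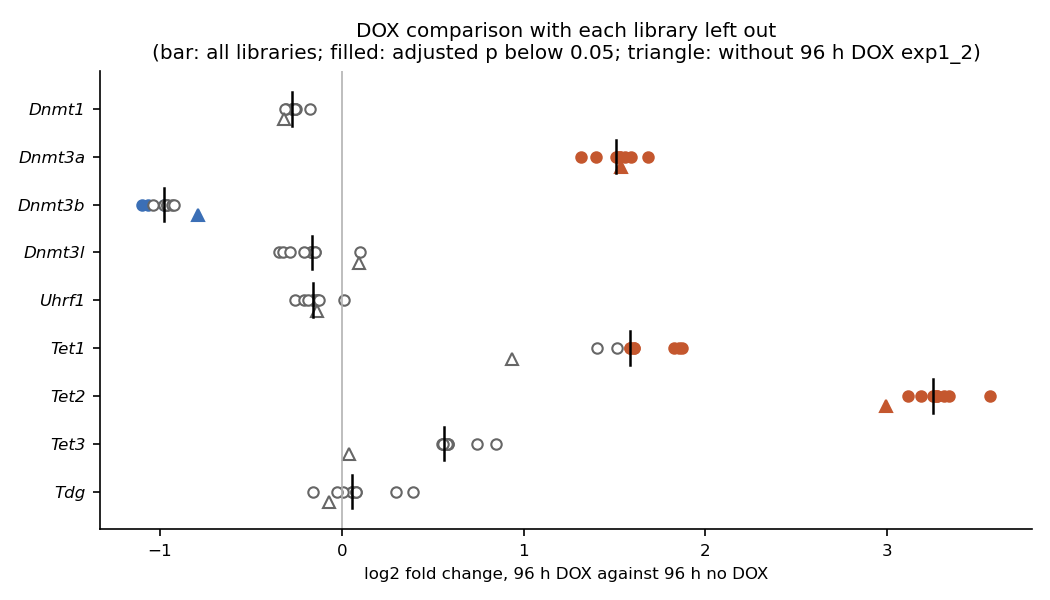
Log2 fold change of 9 genes for 96 h DOX against 96 h no DOX with each library left out in turn; the bar is the value with all libraries, filled symbols were called, and the triangle is the fit without 96 h DOX exp1_2. Dnmt3a (1.32 to 1.68) and Tet2 (3.00 to 3.56) were called in each of the 10 fits, Dnmt3b in 4 and Tet1 in 7. The 10 fits include those without a 2iL library, which is outside this comparison.

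Genes that act with the members were counted by list. Of 9 partners of maintenance methylation tested (UHRF1 and DNMT1 cofactors), 1 rose and 0 fell on 2iL removal, beside 11.5% and 8.9% of all genes. The one that rose was Cdca7l, a relative of the nucleosome remodelling partner Cdca7, which went from 20.8 ± 9.57 to 73.3 ± 16.2 CPM (log2 fold change 1.82, adjusted p = 0.000539). The list's median was -0.20. Uhrf2, the relative of Uhrf1, had 24.2 ± 8.14, 42.9 ± 12.2 and 30.2 ± 13.0 CPM in 2iL, without DOX and with DOX, and edgeR called it in none of the 3 comparisons (adjusted p = 0.100 on 2iL removal, 0.595 and 0.547). Its rise on 2iL removal was called in 2 of 10 other settings, those with a block for experiment or for experiment and number (lowest adjusted p = 0.0162). With DOX against no DOX edgeR called 0 of the 9, beside 3.1% of all genes (0 at an unadjusted p below 0.05, 0 by DESeq2 and 0 by limma). Against 2iL, Cdca7l was up (1.09) and the ligase gene Lig1 down (-0.83), beside 9.84% and 6.83% of all genes. These calls were lost in 3 and 5 of 10 fits with a library left out.

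Among 13 upstream regulators and targeting factors tested, 3 rose and 2 fell on 2iL removal, beside 11.5% and 8.9% of all genes, with a median of -0.17. Dppa3, whose protein keeps UHRF1 from chromatin, fell from 48.8 ± 22.4 to 15.7 ± 4.99 CPM (log2 fold change -1.64, adjusted p = 0.0214, lost in 4 of 10 fits with a library left out, up to 0.0955) and stood at 7.01 ± 6.12 CPM with DOX. DOX against no DOX gave -0.99 for it (adjusted p = 0.417) and DOX against 2iL -2.63 (adjusted p = 0.00164). Zfp57, which protects imprints, fell by 2.41 log2 units (adjusted p = 0.0416), a call lost in 7 of 10 such fits (up to 0.194), and its groups overlapped. Dppa4 (1.12, adjusted p = 0.00123), Ehmt1 (0.98, adjusted p = 0.00470) and Nsd2 (0.84, adjusted p = 0.0164) rose. DPPA4 is a small chromatin protein that keeps developmental promoters free of methylation, and the other genes encode histone methyltransferases. With DOX against no DOX edgeR called 0 of the 13, beside 3.1% of all genes (5 at an unadjusted p below 0.05, 0 by DESeq2 and 0 by limma). Against 2iL, Dppa4, Ehmt1 and Ehmt2 were up and Dppa3 down, beside 9.84% and 6.83% of all genes. The calls of Ehmt1 and Ehmt2 were lost in 6 and 5 of 10 fits with a library left out. Without 96 h DOX exp1_2 the counts were 2 up and 1 down. Dnmt3c, a rodent-specific writer, had 0 reads in all 10 libraries. For any library taken alone, 0 reads allow up to 3. Reads with several alignments were left out, so reads shared with a gene of near-identical sequence would not appear here. The count of 0 therefore does not show that Dnmt3c is silent.

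The 10 tested partners of TET-mediated removal included the Gadd45 genes, whose small stress-response proteins have been tied to active demethylation. Gadd45g had 7.64 ± 0.940 CPM in 2iL, 105 ± 11.0 CPM without DOX and 40.9 ± 12.6 CPM with DOX. This is the order of Dnmt3b, and the correlation of the 2 genes over the 10 libraries was r = 0.992. Its log2 fold change was 3.77 on 2iL removal (adjusted p = 8.92e-09) and -1.33 with DOX (adjusted p = 0.00806, but 0.0561 without 96 h no DOX exp1_1). Gadd45a followed the order of Dnmt3a instead, with 4.86 ± 1.98, 11.4 ± 0.857 and 31.4 ± 2.01 CPM. It rose by 1.21 log2 units (adjusted p = 0.0263) and with DOX by a further 1.46 (adjusted p = 0.0415). Its calls were lost in 5 and 6 of 10 fits with a library left out. Gadd45b fell from 14.2 ± 4.55 to 2.07 ± 0.919 CPM (-2.73, adjusted p = 0.00163) and had 4.08 ± 2.89 CPM with DOX. Idh2, which makes the 2-oxoglutarate that TET enzymes consume, followed Tet2: it fell by 1.47 log2 units on 2iL removal (106 ± 4.74 to 38.3 ± 4.497 CPM, adjusted p = 7.64e-05) and rose by 1.00 with DOX (76.3 ± 14.6 CPM, adjusted p = 0.0214). The DOX call of Idh2 was lost in 5 of 10 such fits (up to 0.109). In all, 2 of the 10 rose and 2 fell on 2iL removal, where 20.4% of all genes were called, and 2 rose and 1 fell with DOX, where 3.1% were. Without 96 h DOX exp1_2, 1 rose and 1 fell with DOX, and within experiment 1 alone 0 of 10 were called with DOX.

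Lists for base excision repair, readers of methylated CpG and the supply of the methyl donor S-adenosylmethionine (SAM) were counted in the same way, beside 20.4% of all genes called on 2iL removal. On 2iL removal Smug1, a uracil glycosylase, fell (-1.33, adjusted p = 0.0395) as the only 1 of 11 repair genes called, a call lost in 6 of 10 fits with a library left out. The methionine synthase gene Mtr fell (-0.77, adjusted p = 0.0291) as 1 of 8 SAM genes, lost in 5 of 10 (DESeq2 and limma called 2 of the 8). Of 6 readers edgeR called 0 (3 at an unadjusted p below 0.05, 2 by DESeq2, 0 by limma, and 2 down by edgeR without 96 h DOX exp1_2). With DOX against no DOX 3.1% of all genes were called. There edgeR called 0 of the 11 repair genes, 0 of the 6 readers and 0 of the 8 SAM genes. DESeq2 and limma likewise called 0. At an unadjusted p below 0.05 these counts were 3, 1 and 1. Against 2iL, where 6.83% of all genes were called down, DOX libraries were lower in Ung and Xrcc1 (-0.93) and in the reader Mbd1 (-1.76). They were also lower in Ahcy (-0.99), which clears the product of the methylation reaction. The calls of Xrcc1, Mbd1 and Ahcy were lost in 3, 5 and 2 of 10 fits with a library left out. Without 96 h DOX exp1_2, 0 of the 6 readers and 0 of the 8 SAM genes were called.

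Germline genes whose promoters are methylated in somatic cells are a common readout of this system. Of 17 listed, 10 passed the filter, and on 2iL removal 5 of these rose and 3 fell; since the filter could be passed through 1 group alone, this count says nothing of the list as a whole. Sycp3, of the meiotic chromosome axis, rose from 2.10 ± 0.918 to 17.5 ± 5.64 CPM (log2 fold change 3.01, adjusted p = 4.58e-05). Tdrd1 and Mael, of the piRNA pathway, rose from 2 reads each in 2iL to 139 and 39 reads, 77.9-fold (exact 95% counting interval 21.2 to 650) and 21.9-fold (5.66 to 187). Fkbp6 (-2.30, adjusted p = 0.000197), Dazl (-2.14, adjusted p = 0.00216) and Rpl10l (-2.11, adjusted p = 8.99e-05) fell. Genes of this list moved in both directions. Within experiment 1 alone 3 rose and 2 fell. With DOX against no DOX edgeR called 0 of the 10, beside 3.1% of all genes (1 at an unadjusted p below 0.05, 1 by DESeq2 and 0 by limma). Against 2iL 5 were up and 3 down, beside 9.84% and 6.83% of all genes. Without 96 h DOX exp1_2, 4 were up and 3 down.

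**Figure D5:**
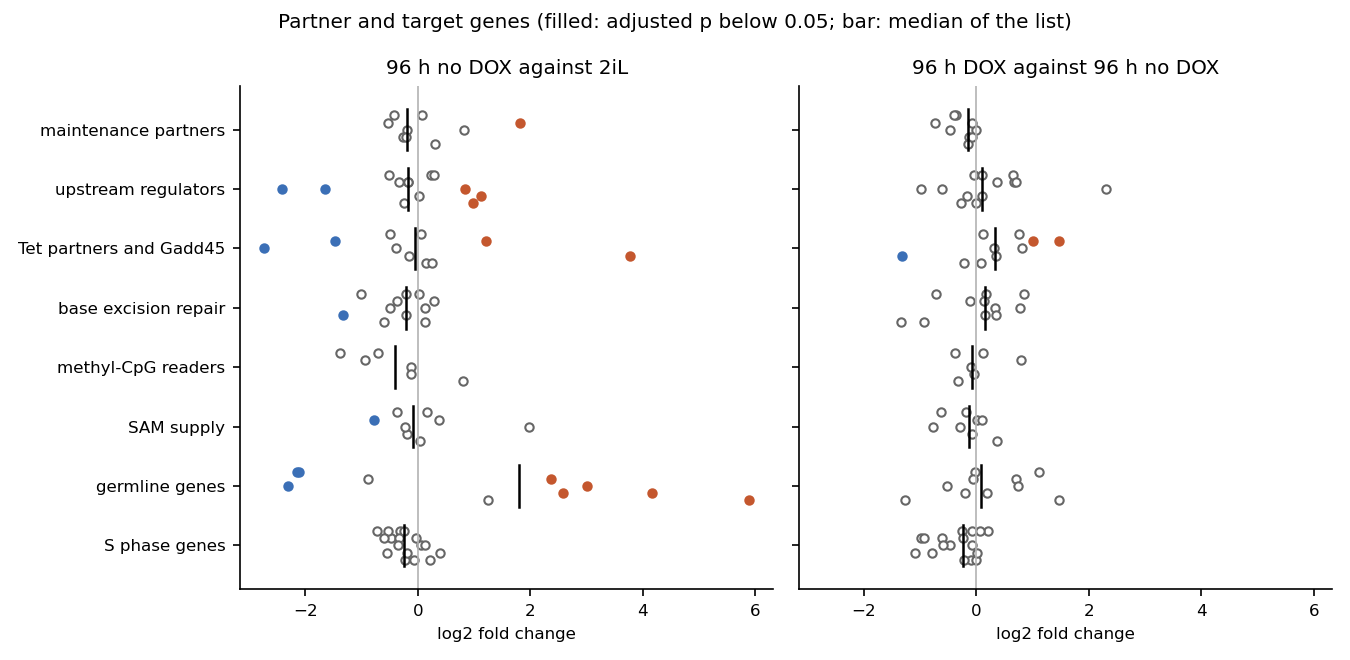
Log2 fold changes of the tested genes of 8 lists on 2iL removal (left) and with DOX against no DOX (right); filled symbols were called (orange up, blue down), and the bar is the median of the list. The germline list spreads from below -2 to above 4 on the left, where its highest points, Tdrd1 and Mael, rest on 2 reads in 2iL, and only the TET partner list has called genes on the right.

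The genes whose levels followed each member most closely over the 10 libraries were taken by Pearson's r of log2(CPM + 1). The libraries share 3 groups, so differences between groups, and in places a single library, enter these values, which carry no p. For Dnmt3a they were Car2, a carbonic anhydrase (r = 0.986), Cgnl1, of cell junctions (0.981), and Prss50 (0.978), all lowest in 2iL and highest with DOX. For Dnmt3b they were Gadd45g, Esrp1, an epithelial splicing regulator (0.991), and the kinase gene Pim2 (0.988), all highest without DOX. Pim2 had 28.0, 771 and 334 CPM in 2iL, without DOX and with DOX. Tet2 was followed by Parvb (0.956), the planar polarity gene Vangl1 (0.951) and the Nodal co-receptor gene Tdgf1 (0.95). Tdgf1 had 155, 24.4 and 138 CPM. Tet1 was followed by Sparc (0.974), Ckap4 (0.942) and Mphosph10 (0.930), which were 0.924, 0.839 and 0.785 without 96 h DOX exp1_2. Tet3 was followed by Cldn6 (0.972), Slc44a2 (0.972) and Igdcc3 (0.962), and Dnmt3l by Cds1 (0.952), Sgsm1 (0.936) and Arhgef17 (0.936). Dnmt1 lay closest to Zfp607a (0.969), Fntb (0.953) and Slit2 (0.946), Uhrf1 to Lhfpl2 (0.979), Trpm1 (0.969) and Apof (0.968), and Prdm14 to Casq2 (0.961), Grin1 (0.953) and Rpn2 (0.946).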

How the data were processed

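Read counts per gene deposited by the authors for 10 libraries were used throughout. Per the labels' protocols polyA RNA was read at its 3′ end by digital gene expression, and the submitters' processing notes name bcl2fastq, STAR 2.6.0a, HTSeq and mm10. Annotation release, strand and aligner settings: not given in the sources used here. The 5 HTSeq summary lines of each file, 62.7% to 68.4% of its reads and mostly reads with several alignments (56.4% to 62.4%), were taken off, so copies with near-identical sequence are undercounted. Symbols were matched by Ensembl ID (30934 of 31053). Members of families and pseudogenes sharing sequence are affected most. The deposited CPM table was not used.

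edgeR 4.0.16 in R 4.3.3 kept genes with filterByExpr by group (minimum count 10), scaled libraries by TMM (factors 0.913 to 1.09) and fitted a robust quasi-likelihood model to all 10 libraries without covariates. Comparisons were contrasts between the group means, adjusted by Benjamini-Hochberg over 11215 genes and called below 0.05. SEs come from the fold change and the F statistic, and levels are mean ± SD of TMM-scaled CPM. Ratios of reads for genes with few reads carry exact 95% counting intervals, which cover counting error only. The Dnmt3a to Dnmt3b ratio used a pseudocount of 0.5 and exact permutation over libraries. Differences between experiments were contrasts of group by experiment means. As each 96 h group had 1 library in experiment 2, within-experiment values carry no test of their own.

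On simulated data for DOX against no DOX (10824 genes), 30.6% of genes raised 2-fold and 84% of those raised 4-fold were called, as were 19.6% of those lowered to 0.5 and 66% of those lowered to 0.25, with 0.047% of unchanged genes called. The simulated counts used a common mean per gene over all groups and the fitted trend of the spread. Spread particular to single genes, a library that stands apart and differences from 2iL were not simulated. These rates may therefore differ in the real data.

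The members and the lists were chosen with earlier results of these data known. All members are named, and from each list up to 3 called genes per direction and comparison with the largest change, plus Dppa3 and Uhrf2. The 3 most correlated genes of each called member needed a mean of 10 CPM in a group and a pseudocount of 1; numbered or clone names were skipped. Paf15 of the maintenance list matched no symbol. Other filters and scalings, DESeq2 1.42.0, limma 3.58.1, fits to 2 groups or to experiment 1 and replicate blocks were tried. List counts without 96 h DOX exp1_2 and within experiment 1, and correlations without 96 h DOX exp1_2, were added after seeing the data. No 2 libraries held identical counts.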

Additional observations from a re-analysis of the deposited data

Results flagged for a closer look

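The Tdg level in the 4 libraries of 2iL had 1 value far from the rest. Library exp2_1 held 3 reads (0.918 CPM) and the other libraries 1 read each (0.291 to 0.368 CPM). The gap from the highest value to its neighbour took 0.877 of the group's range, above the 95% limit of Dixon's test for 4 samples. The step is 2 reads. The test was run on 11 measures, and chance alone passes it in about 5% of groups.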

How the results depend on the processing

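Dnmt3a and Tet2 kept their calls and directions on 2iL removal and with DOX against no DOX in all 10 fits that left out a library and all 10 other settings. For DOX the highest adjusted p values were 0.0394 and 0.0133. Of 567 values of single members under other settings, 509 kept direction and call status, 43 lost the call, 5 gained it and 10 turned sign. Those kept include values uncalled in both fits, which had no call to lose. Of 1035 values of partner and target genes, 886 were unchanged in this sense, 147 lost the call, 2 gained it and 0 turned.

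Members called on 2iL removal were 7, from 5 to 7 with a library left out and 4 in experiment 1 alone, where Dnmt3l and Uhrf1 were lost and Prdm14 could not be fitted. With DOX they were 4, from 2 to 4 with a library left out (2 without 96 h no DOX exp1_1 or exp2_2), 2 with only the 2 groups in the fit and 2 in experiment 1. Against 2iL they were 8, from 4 to 8 with a library left out (4 without 2iL exp2_1, 5 without 2iL exp2_2) and 3 in experiment 1. All genes called were 2289 on 2iL removal (1779 to 2717 with a library left out, 1208 in experiment 1), 348 with DOX (161 to 358, the lowest without 96 h no DOX exp1_1, and 181 without exp2_2) and 1870 against 2iL (1408 to 1917, 897 in experiment 1). For DOX the count was 564 with a filter of 1 read, 563 with DESeq2, 212 with only the 2 groups and 95 in experiment 1. Experiment 1 alone and fits to 2 groups use fewer samples. For the other settings the cause was not tested.

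Deviations of same-numbered libraries from their group means were weakly correlated (r -0.101 to 0.227, 1 of 8 pairs above 0.1). The highest value was that of 2iL exp1_2 with 96 h no DOX exp1_2. Noise in single genes also lowers r, so these values do not settle whether the numbers pair the samples. A replicate block for experiment and number gave 1973, 159 and 1591 called genes, and ended the calls of Dnmt3b with DOX (adjusted p = 0.0596) and of Dnmt1 (0.0529) and Dnmt3l (0.076) against 2iL. A replicate block for experiment alone gave 2244, 347 and 1815 and ended that of Dnmt3l against 2iL (0.0542). Among partner genes the first block also ended the calls of Smug1 on 2iL removal, of Idh2 and Gadd45a with DOX, and of Cdca7l, Ehmt1, Ehmt2 and Mael against 2iL, either block those of Taf7l on 2iL removal, and the second block those of Ehmt1 and Taf7l against 2iL. Both blocks called Uhrf2 on 2iL removal.

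Values that turned sign were all uncalled. Dnmt3l with DOX ran from -0.35 to 0.10 with a library left out (0.09 when this was 96 h DOX exp1_2). Uhrf1 with DOX ran from -0.26 to 0.015, the highest without 96 h no DOX exp1_1. Tdg with DOX was -0.0087 with the replicate block for experiment and number, -0.16 without 96 h no DOX exp1_2, -0.07 without 96 h DOX exp1_2 and -0.03 without 96 h DOX exp2_1, with a range of -0.16 to 0.39. Tet2 against 2iL was 0.0051 with library totals as the only scaling, 0.04 without 2iL exp1_2 and 0.16 without 96 h DOX exp1_1, with a range of -0.42 to 0.16. The log2 ratio of Dnmt3a to Dnmt3b differed by -0.44 to -0.10 on 2iL removal, 2.29 to 2.75 with DOX and 2.02 to 2.49 against 2iL with a library left out.

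With library totals alone, 70.6% of genes called against 2iL were up, beside 59% with TMM, and the median of all genes was 0.16 in place of 0.02. Genes called in tests of differences between experiments were 4 (2iL level), 1 (2iL removal) and 0 (DOX), and 25, 18 and 1 with a filter of 1 read, with 0 members among them (at an unadjusted p below 0.05, 676, 855 and 614 genes, of which 1, 1 and 0 were members). Prdm14 could be fitted in 7 of 10 fits with a library left out. Few reads limit the values of Prdm14, Tdg and Tet3, and those of Tet2 at 96 h without DOX.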
